A study of Oryza sativa with 4 samples.

Results

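The peaks at the tag ceiling are those OsMADS27 peaks whose pileup, the number of sequenced tags stacked over the summit, reached at least 0.9 times the largest pileup of their list. They numbered 4128 of 72738 listed peaks (5.68%) in replicate 1 and 3774 of 73366 (5.14%) in replicate 2. They were chosen by the measured pileup, so their tags, fold enrichment, q and input background are given as a description and support nothing. Both pulled-down libraries came from young seedlings, regenerated on Murashige-Skoog medium without further treatment, of the indica rice cultivar Pusa Basmati 1 (PB1) carrying an overexpressed OsMADS27 with an N-terminal 3xMyc tag. The 2 input libraries are sheared chromatin of the same transgenic genotype, so no library came from plants without the tagged protein, and the promoter of the transgene is not given in the labels. Myc-Trap magnetic agarose pulled down the tagged protein. A list was called by the authors for each pulled-down library against the input of the same number. The labels do not say whether the replicates came from separate plants, so values are printed for each list and no test is made.

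OsMADS27 is a MADS-domain transcription factor, and proteins of this family bind DNA as dimers at CArG boxes, short motifs with an AT-rich core. In chromatin immunoprecipitation a bound site shows as more tags in the pulled-down DNA than in input chromatin at the same place. Duplicate tags are often capped, since amplification during library making copies fragments. Where many reads fall on one place, as in sequences that occur many times in a genome, such a cap is reached in input and pulled-down DNA alike, and a fold between them is then held near 1. Plant genomes hold many such sequences, among them retrotransposons, satellite arrays and ribosomal RNA genes.

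The largest pileup of each list was the cap itself. With at most 5 tags kept at a position, tags of 50 bp and 2 strands, no base can be covered by more than 500 tags. After scaling to the smaller library this gives 480.02 in replicate 1 and 490.35 in replicate 2, which are the largest listed pileups. The rule therefore took peaks of 450 to 500 tags in both lists. The median member held 469 tags in replicate 1 (quartiles 460 and 481) and 472 in replicate 2 (462 and 486). Exactly 500 tags, every position full on both strands, stood at 229 and 184 summits.

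**Figure D1:**
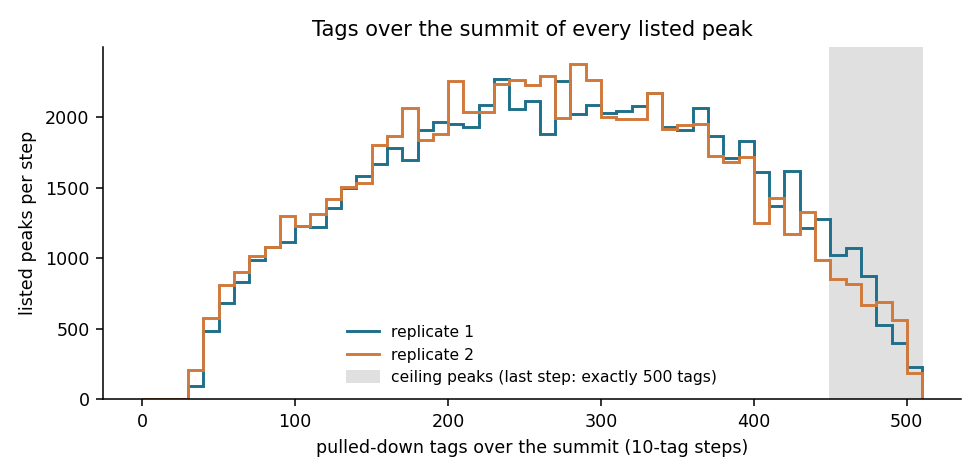
Number of listed peaks (vertical axis) by pulled-down tags over the summit in steps of 10 (horizontal axis), for both lists. The grey area holds the ceiling peaks. It starts with 1024 and 853 peaks at 450 to 459 tags and ends with the 229 and 184 at exactly 500 tags, beyond which no peak lies.

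The threshold did not fall in a gap between peaks, although counts at single tag values were uneven. At 450 tags stood 146 peaks in replicate 1, with a median fold of 1.38 and a median width of 114 bp, and at 449 tags 119 peaks with 1.42 and 111 bp. In replicate 2 there were 71 peaks at 450 tags (1.64 and 82 bp) and 206 at 449 tags (1.66 and 104 bp). The first 3 members just inside, in order of position, lay on chromosome 1 in both lists. In replicate 1 they started at 109324, 9539315 and 12099796, with folds of 1.35, 1.34 and 1.69, and in replicate 2 at 668601, 4934713 and 12969793, with folds of 1.91, 1.64 and 1.31. The first 3 just outside, also on chromosome 1, started at 3008904, 4555782 and 6067608 in replicate 1 (folds 1.16, 1.16 and 1.23) and at 108550, 117024 and 6747155 in replicate 2 (1.33, 1.33 and 1.54).

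Input chromatin was also deep at every one of these peaks. The local input background, recomputed from pileup and fold, had a median of 323 tags in replicate 1 (range 155 to 418) and 325 in replicate 2 (185 to 428). Input tags were filtered too, with 131452322 of 162741825 kept in replicate 1 and 127964706 of 157206538 in replicate 2. How far this held down the input depth at these peaks was not tested. Relative to the genome-wide average of 16.4 and 16.0 input tags, the medians were 19.7 and 20.3 times as high, and the lowest member stood at 9.43 and 11.6 times. Over all listed peaks the median was 8.58 and 8.56 times the average. For peaks at 0.7 to 0.9 times the largest pileup it was 14.1 and 14.6 times. With the cap on the pulled-down tags, the highest fold possible at the median background was 1.48 in replicate 1 and 1.51 in replicate 2. The folds listed were 1.39 at the median (quartiles 1.26 and 1.59) and 1.43 (1.29 and 1.65). A fold of at least 2 was listed for 158 members (3.83%) and 146 members (3.87%), beside 32.7% and 36.5% of all peaks. The band of 0.7 to 0.9 stood between, with median folds of 1.64 and 1.66 and a fold of at least 2 in 17.0% and 19.5%. With every further band of 50 tags the median input rose and the median fold fell, in both lists, so neither is particular to the ceiling.

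The peaks at exactly 500 tags had the least room. Their median input background was 398 tags in replicate 1 and 387 in replicate 2, with median folds of 1.21 and 1.27 and no fold of 2 or more. Among these ties, the highest −log10 q in replicate 1 (22.1) belonged to chromosome 2 at 27003822 to 27003928, with 287 input tags, a fold of 1.67 and 494 tags at its partner in replicate 2. In replicate 2 it was chromosome 5 at 9504733 to 9504836, with a −log10 q of 34.3, 257 input tags, a fold of 1.90 and 499 tags at its partner in replicate 1. A summit of 500 tags in both lists occurred at 100 shared peaks.

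Sharing between the lists is a measure that the rule did not use. Sharing meant that 2 peaks, 1 from each list, overlapped over 50% or more of the shorter. Of the members, 3720 in replicate 1 (90.1%, 95% Wilson interval 89.2 to 91.0%) and 2994 in replicate 2 (79.3%, 78.0 to 80.6%) had a partner, beside 77.2% and 76.2% of all peaks. Peaks at 0.7 to 0.9 times the largest pileup were shared in 86.9% and 86.3% of cases. In the adjacent band of 400 to 449 tags the values were 89.7% (89.0 to 90.4%) and 87.7% (86.9 to 88.5%), so replicate 1 members stood near their neighbours in tags and replicate 2 members below them. The intervals cover counting error and treat peaks as independent, although many peaks repeat the values of others.

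Within the ceiling the lists also went apart. In replicate 1 the shared portion was 84.7% at 450 to 459 tags and 96.9% at 500 tags (93.8 to 98.5%). In replicate 2 it was 75.6% at 450 to 459 tags, 84.3% at 480 to 489, 74.1% at 490 to 499 and 70.1% at 500 (63.1 to 76.3%). The weakest members by q, with −log10 q under 2, were shared in 80.4% and 63.5% of cases, and those of 20 or more in 92.8% and 79.3%. Sharing did not rise steadily between them. For 2 to 5, 5 to 10 and 10 to 20 it was 88.5%, 92.6% and 89.7% in replicate 1. In replicate 2 it was 79.2%, 80.3% and 82.1%.

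**Figure D2:**
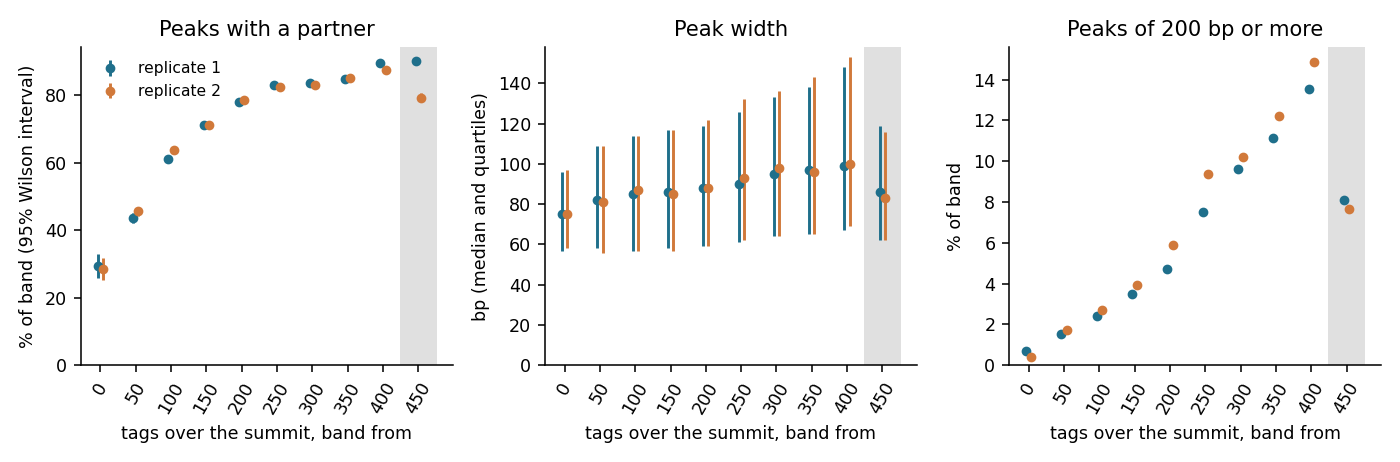
Sharing (left, percent with 95% Wilson interval), width (centre, median with quartiles) and the portion of peaks of 200 bp or more (right) for bands of 50 tags over the summit, in both lists. In the last band, shaded, sharing is 90.1% and 79.3%, and the portion of wide peaks is below that of the band before it.

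The partners of members were themselves near the cap. In the other list, the partners of replicate 1 members held a median of 466 tags (5th percentile 430, lowest 180), and those of replicate 2 members a median of 473 (438 and 132). A partner at the ceiling was found for 2688 replicate 1 members (65.1%) and 2651 replicate 2 members (70.2%), beside 4.23% and 5.09% of all peaks and 2.19% and 6.87% of the band of 0.7 to 0.9. Tags of the same place in both lists are the measure behind the rule, so these shares are a description. Where the partner was below the ceiling, in 1032 and 343 cases, it held a median of 439 and 441 tags. Fewer than 400 tags were seen at 13 and 35 partners.

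Members without a partner rarely touched a peak of the other list. Of the 408 in replicate 1 and the 780 in replicate 2, only 13 and 3 overlapped any peak of the other list by even 1 bp, and the nearest listed summit there lay a median of 386.5 and 371 bp away. In replicate 2 they were narrow, at a median of 62 bp against 87 bp for shared members, whereas in replicate 1 the medians were 87 and 86 bp. The absence of a listed partner does not show absence of tags there, because a peak is listed only when its q passes.

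The 2688 pairs at the ceiling in both lists had summits a median of 1 bp apart, 89.8% of them within 10 bp. Across these pairs Spearman's rho was 0.94 for input background, 0.91 for fold enrichment and 0.83 for tags. The input is the denominator of the fold, and the pairs include many of identical values, so these are descriptions only. The fold was higher in replicate 2 in 2061 pairs (76.7%). Pileup was scaled by 0.960 in replicate 1 and 0.981 in replicate 2, so equal tags over equal input give a higher fold in replicate 2. How far this accounts for the difference was not tested. In 64 pairs both folds were at least 2.

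Ceiling peaks were at the median slightly narrower than all listed peaks and narrower than peaks just below the ceiling. Their median width was 86 bp in replicate 1 (quartiles 62 and 119) and 83 bp in replicate 2 (62 and 116), against 90 bp in all listed peaks and 98 bp in both lists at 0.7 to 0.9 times the largest pileup. The difference from all peaks depends on the setting. With identical members counted once the medians were 89 and 87 bp, and with −log10 q of at least 10 they were 97 and 96 bp. The other peaks were not recounted under these settings. Peaks at exactly 500 tags were narrower still, at a median of 72 and 69 bp, with 1 and 0 of them reaching 200 bp. Widths of 200 bp or more were listed for 334 members (8.09%) and 289 (7.66%), close to the 7.07% and 7.74% of all peaks and below the 12.2% and 13.3% of the band of 0.7 to 0.9. The wide members had a lower input background than members in general, at a median of 283 and 286 tags, and 99.7% and 97.9% of them were shared, close to the 98.0% and 98.1% of all peaks of 200 bp or more.

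By the smaller of both widths, the 4 widest pairs at the ceiling lay on 4 sequences. The first spanned 4072 to 4533 of the unplaced sequence Syng_TIGR_031, 462 bp in replicate 1 and 466 bp in replicate 2, with 470 and 458 tags. On chromosome 6, the peak from 3625288 to 3625716 was 429 and 438 bp wide, with 477 and 484 tags over 284 and 253 input tags, and with folds of 1.61 and 1.87. Another, 428 and 429 bp wide, lay on an unplaced sequence and had folds of only 1.19 and 1.27. The last, on chromosome 4 from 9730857, was 632 bp wide in replicate 1 and 410 bp in replicate 2, with 454 and 450 tags. Thus 2 of the 4 widest were on unplaced sequences, a count of few peaks. Of all members on unplaced sequences, 4 in each list (5.88% and 5.33%) reached 200 bp, below the 8.09% and 7.66% of all members.

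Ceiling peaks occurred on all 12 chromosomes and made up unequal parts of their peaks. On chromosome 10 they were 359 of 4680 listed peaks (7.67%, 6.94 to 8.47%) in replicate 1 and 358 of 4817 (7.43%) in replicate 2, and on chromosome 5 487 (7.03%) and 489 (6.90%). Chromosome 2 had 4.27% and 3.31%, chromosome 11 had 4.51% and 3.63%, and chromosome 1 had 4.53% and 3.51%. By number, chromosome 4 held the most, 503 and 495, which is 12.2% and 13.1% of all members. It also held the most listed peaks, 8721 and 8908. Members were 5.77% and 5.56% of these, near the 5.68% and 5.14% of the whole lists. By length, chromosome 5 held the most among the chromosomes, 16.3 per Mb in both lists, and chromosome 2 the fewest, 6.24 and 4.84 per Mb. All listed peaks stood at 231 and 237 per Mb on chromosome 5 and at 146 in both lists on chromosome 2. Lengths run to the last listed peak, since no genome of the lists was used. The peaks at exactly 500 tags were fewer on chromosome 1, at 4 and 1, than on chromosome 5, at 39 and 37, or chromosome 10, at 39 and 27. Chromosome 1 had more listed peaks, 7655 and 7639, than chromosome 5 (6931 and 7088) or chromosome 10 (4680 and 4817).

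**Figure D3:**
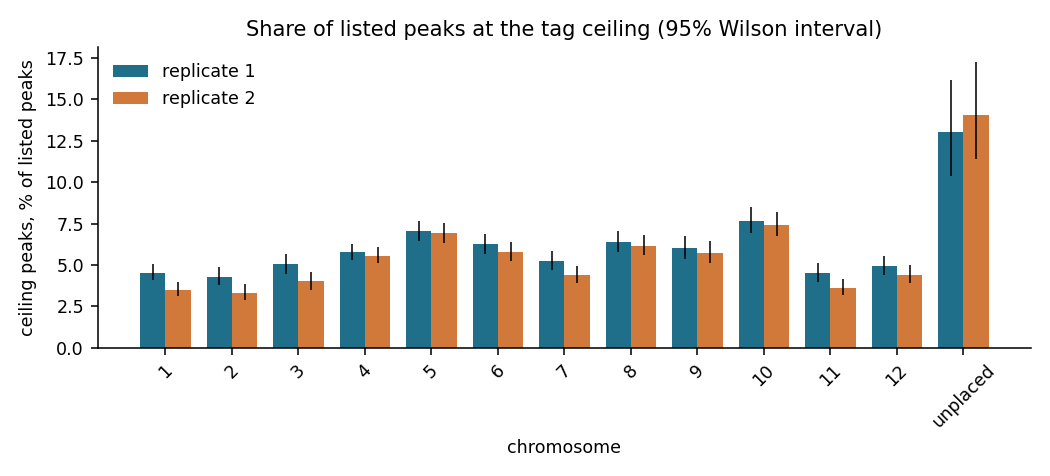
Ceiling peaks as a percentage of all listed peaks of each chromosome and of the unplaced sequences together, with 95% Wilson intervals, in both lists. Chromosomes 5 and 10 stand at about 7%, chromosomes 1, 2 and 11 between 3.31% and 4.53%, and the unplaced sequences at 13% and 14.1%.

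Unplaced sequences, contigs that the assembly did not assign to a chromosome, had the highest portion. There 68 of 523 peaks in replicate 1 (13%, 10.4 to 16.2%) and 75 of 533 in replicate 2 (14.1%, 11.4 to 17.3%) were at the ceiling, over 13 and 15 sequences. The 2 contigs with the most held 18 and 13 members in replicate 1 and 22 and 15 in replicate 2. On the short contig Syng_TIGR_032, 5 of 7 listed peaks were at the ceiling in both lists.

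Along the chromosomes the members were concentrated. On each of the 12 chromosomes and in both lists, the shortest stretch with 50% of the ceiling peaks was shorter than that with 50% of all peaks. Fewer points alone can shorten such a stretch, by an amount not measured here. On chromosome 5 it ran from 9.76 to 13.2 Mb in replicate 1 and from 8.74 to 12.2 Mb in replicate 2, 11.6% of the chromosome's span in both, against 35.2% and 34.7% for all peaks. On chromosome 10 it covered 17.8% and 15% of the span, against 29.8% and 29.5%. Chromosome 2 was the least concentrated in replicate 1, with 41.8% against 44.8%, and gave 38.9% against 43.9% in replicate 2. On chromosome 11 the lists gave different stretches, 18.2 to 28.6 Mb and 6.01 to 17.5 Mb.

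In windows of 500 kb the numbers of members in the 2 lists went together, with a rho of 0.91. They also went with the number of all listed peaks in the window, with a rho of 0.73 in replicate 1 and 0.71 in replicate 2. The 752 windows with a listed peak held a median of 3 and 2 members, and 124 of them (16.5%) held none in either list. The 91 windows with at least 10 members in each list, picked for that number, held 46.7% and 53.8% of the members on chromosomes and 24.0% and 24.6% of all peaks there. Over both lists together chromosome 8 from 6.5 to 7 Mb had the most (114), with 49 of 222 peaks in replicate 1 and 65 of 245 in replicate 2. Chromosome 5 from 9.5 to 10 Mb followed with 113, 56 of them in replicate 1, where it held the most, and 57 in replicate 2, and chromosome 10 from 7 to 7.5 Mb with 47 and 57. The highest portion of members among the 15 densest windows was 22.7% in replicate 1, on chromosome 3 from 13 to 13.5 Mb, and 26.5% in replicate 2, in the window on chromosome 8. Centromeres and repeat classes were not placed here, since that needs the genome of the lists.

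Members often lay near each other. With neighbours at most 10 kb apart joined into a run, 3316 members of replicate 1 (80.3%) fell into 831 runs and 3071 of replicate 2 (81.4%) into 705. All listed peaks, being denser, were within such runs in 97.5% and 97.6% of cases, so this share is not a result about the members. Neighbouring ceiling summits on a sequence were a median of 4665 and 3708 bp apart. Members also had many peaks of any height around them, a median of 16 and 18 others within 10 kb against 13 for all peaks in both lists and 18 in both for peaks at 0.7 to 0.9 times the largest pileup. Only 21 members in each list (0.509% and 0.556%) had no listed peak within 10 kb, beside 2.47% and 2.40% of all peaks and 0.546% and 0.672% of the band of 0.7 to 0.9. Crowding was thus no greater at the ceiling than just below it. Joined over both lists, 91.5% of members lay in runs or stretches with members of both replicates. This joint share was not counted for all listed peaks, which are denser, so it too is not a result about the members.

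The largest run lay on chromosome 3 from 13462884 to 13545129, 82.2 kb long. It held 36 members among 96 listed peaks in replicate 1 and 45 among 107 in replicate 2, of which 6 and 2 stood at 500 tags. Their median input was 21.7 and 22.0 times the genome-wide average, and their median folds were 1.29 and 1.34. Of the members there, 32 in each list had a partner.

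The next was on chromosome 8 from 6982066 to 7052707 (70.6 kb), with 27 of 70 and 34 of 86 peaks at the ceiling. On chromosome 6, 22 of 68 and 34 of 72 peaks from 18632382 to 18691728 were members, and on chromosome 10, 23 of 63 and 30 of 79 from 7048725 to 7096762. These runs mixed members with lower peaks, as the median of the other peaks was 374.5 and 381.5 tags on chromosome 6. The remaining 4 named runs held 39 to 48 members over both lists. They were chromosome 4 from 14392860 to 14452274 (25 and 23), chromosome 5 from 11810053 to 11866527 (22 and 21), chromosome 5 from 11102490 to 11153593 (23 and 19) and chromosome 10 from 5067169 to 5106333 (16 and 23). The last was the fullest, with medians of 496.5 and 495 tags, 6 and 7 summits at 500, and 42.1% and 50% of its listed peaks at the ceiling.

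**Figure D4:**
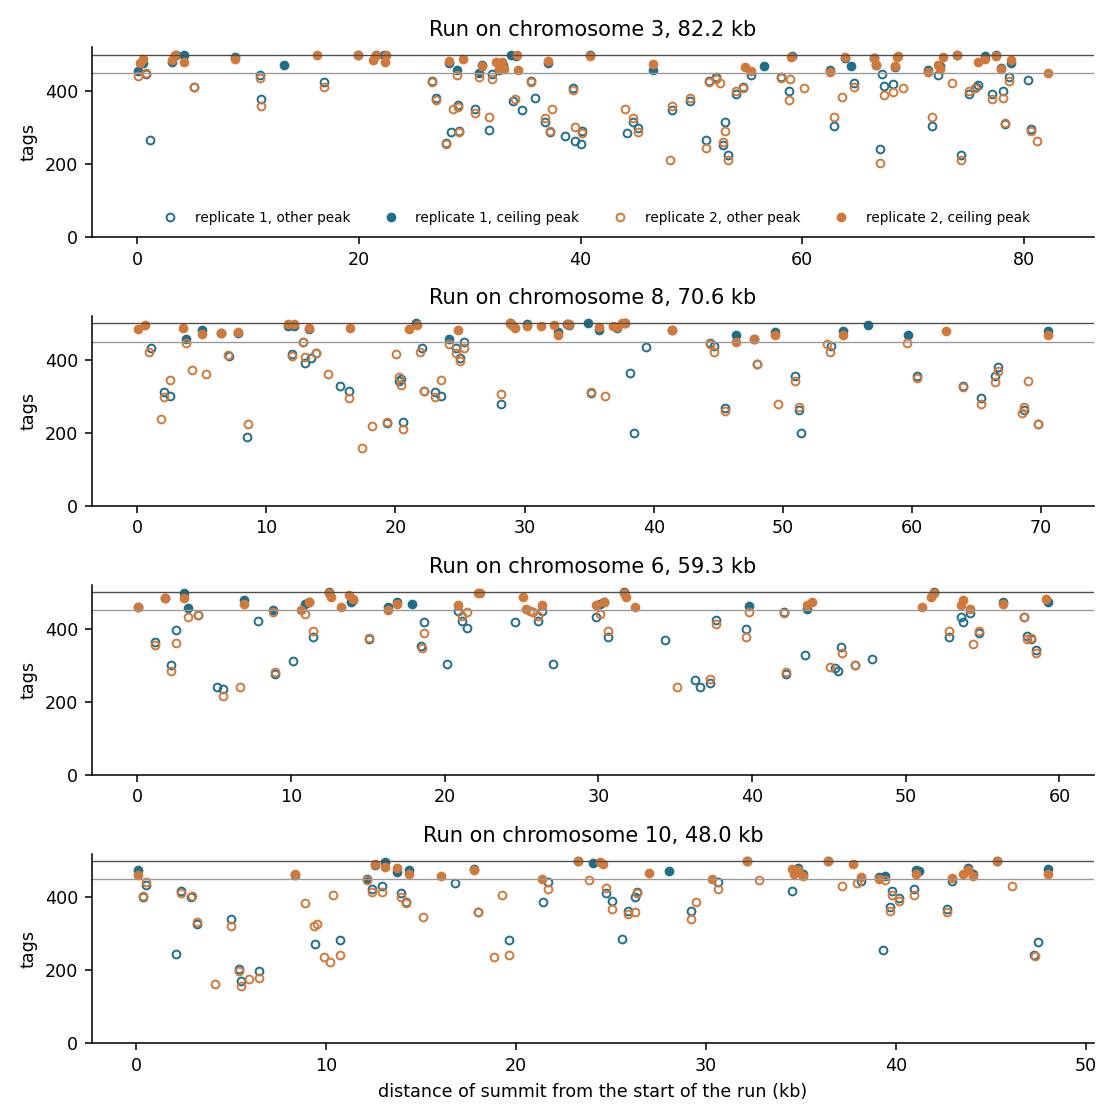
Tags over the summit (vertical axis) against distance from the start of the run in kb (horizontal axis) for all listed peaks of the 4 runs with the most members. Filled points are ceiling peaks, open points other peaks, and the lines stand at 450 and 500 tags. Filled points recur in each run between open points with fewer tags, in both replicates, with stretches that hold none.

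A small part of neighbouring ceiling summits lay at recurrent distances. Neighbours under 2 kb apart made up 34.5% of all neighbouring members in replicate 1 and 38.1% in replicate 2. Of 1414 such neighbours in replicate 1, 53 (3.75%) lay 765 to 769 bp apart, on 12 sequences, and of 1429 in replicate 2, 46 (3.22%) lay 770 to 774 bp apart, on 13. Among neighbours of all listed peaks those steps held 0.313% and 0.273%. The steps were picked as the commonest among members, and all listed peaks lie closer together, at a median of 587 and 568 bp. The shares are therefore not on equal terms. In replicate 1 a summit of 473 tags over 322 input tags was followed by one of 480 over 270 in 12 cases on 9 sequences, each time at exactly 767 bp. The reverse order, 480 over 274 and then 473 over 326, occurred 11 times at 767 to 769 bp. In replicate 2 the order 466 over 325 and 481 over 260 occurred 12 times on 9 sequences at exactly 772 bp, and the reverse 9 times at 772 to 774 bp. The same pair of tag counts thus recurred in both orders within 2 bp of 1 distance in each list, with input values that differed by 4 tags between the orders in replicate 1. These steps rest on repeated values: with identical peaks counted once, the commonest step began at 390 bp in both lists. The next most common steps were 390 to 394 bp in replicate 1 (25 neighbours) and 385 to 389 bp in replicate 2 (27).

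**Figure D5:**
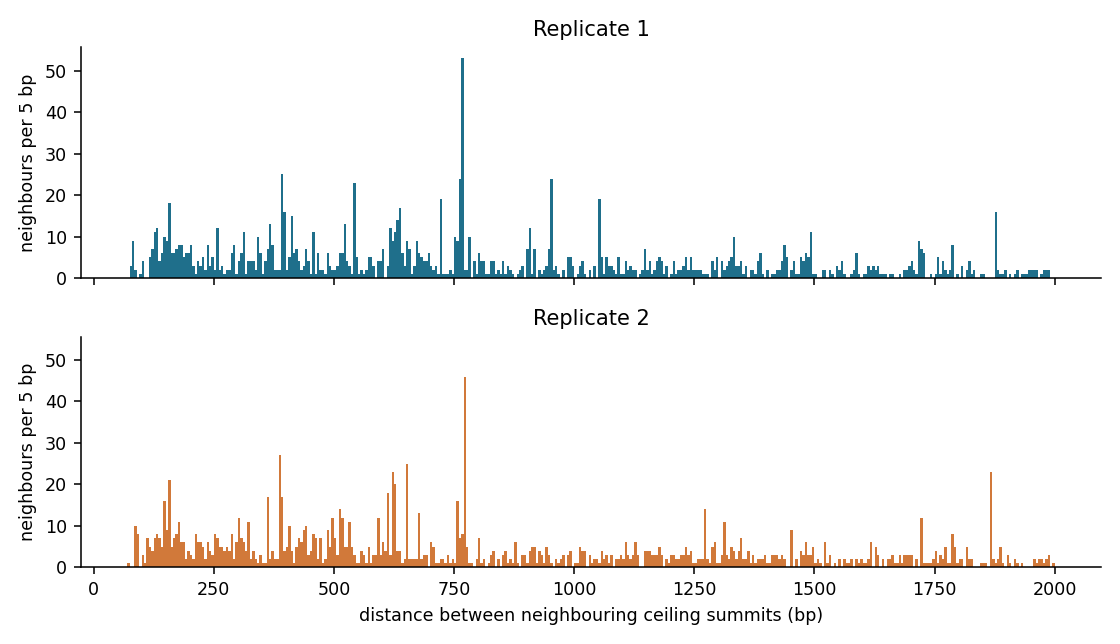
Number of neighbouring ceiling summits (vertical axis) by the distance between them in steps of 5 bp (horizontal axis, up to 2 kb), in each list. The highest bars are the 53 neighbours at 765 to 769 bp in replicate 1 and the 46 at 770 to 774 bp in replicate 2.

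Many members shared their exact values with members elsewhere. Tags, fold and width were all equal to those of another ceiling peak in 1532 members of replicate 1 (37.1%) and 1300 of replicate 2 (34.4%), beside 17.7% and 17.6% of all listed peaks and 23.6% and 23.5% of the band of 0.7 to 0.9. With any width allowed, 74.3% and 71.1% of members had such a twin, no more than the 76.3% and 75.7% of all peaks. The equal peaks formed 454 and 387 sets, of which 62.6% and 56.3% spanned more than 1 sequence. Their DNA sequences were not compared.

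Within the largest sets the other list gave 1 tag count too. The largest set of replicate 1 held 32 peaks on 11 sequences, each 57 bp wide with 476 tags over 386 input tags (fold 1.18), and all 32 partners in replicate 2 held exactly 490 tags over 331. The next 2 sets held 27 peaks (455 tags, 165 bp wide) and 24 peaks (473 tags, 61 bp wide), whose partners all held 439 and 466 tags. In replicate 2 the largest set held 48 peaks on 12 sequences 91 bp wide with 481 tags over 260, and all 48 partners held 480 tags over 270 to 274. The following sets, of 45 peaks with 466 tags and 31 peaks with 475 tags, had partners of 473 and 466 tags throughout.

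Among sets of at least 5 members, those equal in tags, fold and width were shared or not shared as wholes. Smaller sets, which are most of the 454 and 387, were not counted this way. Of the 60 sets with at least 5 members in replicate 1, all members had a partner in 53 and none had one in 7, and no set was mixed. Of the 48 such sets in replicate 2 the numbers were 41, 7 and 0. The sets without partners held 44 and 74 members. This depends on width being part of the match: among sets of at least 5 members equal in tags and fold only, 22 of 164 in replicate 1 and 63 of 152 in replicate 2 were mixed. Over the pairs at the ceiling in both lists, 791 (29.4%) were equal to another pair in tags, fold and width of both lists, in 242 sets. Counts of peaks and of shared peaks at the ceiling are therefore larger than the number of distinct values behind them.

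The highest folds at the ceiling showed the same repetition. The pair with the highest smaller-of-both fold lay on chromosome 11 at 22405736 to 22405794, with 480 tags in both lists over 188 input tags in replicate 1 (95% exact Poisson interval 162 to 217) and 199 in replicate 2 (172 to 229). Its folds were 2.44 and 2.36, and no other ceiling pair had its values. The 7 that followed all held 468 tags over 195 in replicate 1 (fold 2.30) and 470 tags in replicate 2, over 192 in 6 of them and 193 in the other (folds 2.39 and 2.38). They lay on chromosome 1 at 9532268 to 9532392 and at 24021287 to 24021525, on chromosome 10 at 748867 to 748998, on chromosome 2 at 31587773 to 31588009, on chromosome 3 at 33816602 to 33816786, and on chromosome 5 at 5722146 to 5722330 and 20133288 to 20133475. A further peak, on chromosome 5 at 20144869 to 20145061, had the same values, which makes 8 loci on 5 chromosomes. It was tied with the others and left out of the 8 named pairs by order only. Replicate 2 by itself held 11 ceiling peaks of these values on 6 sequences, all of them shared.

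These 8 loci also had 1 geometry. At each the summits of both lists were the same base, and the nearer edge of the peak lay 22 bp from it in replicate 1 and 23 bp in replicate 2. That edge was to the right of the summit at 7 loci and to the left at 1, the locus on chromosome 3. The far edge differed, so that widths ran from 125 to 239 bp in replicate 1 and from 125 to 329 bp in replicate 2. The 4 pairs with the lowest input background, by the larger of both lists, were 4 of these loci, on chromosomes 1, 2 and 10, tied with the others. This largely follows from the ranking by fold, since members differed little in tags and the input is the denominator.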

How the data were processed

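The submitters' processing notes name cutadapt and MACS2. Peaks were called with MACS 2.2.5, per the file headers, which compared each pulled-down library with its own input at a q cutoff of 0.05, with 50 bp tags, a fragment length of 50 bp, at most 5 tags per position (set by the automatic option) and an effective genome size of 400 Mb. A folder in the command line is named for Bowtie; its version and settings, the genome build and the rule for reads with several matches are not given. The deposited pileup is a signal, the tags over the summit scaled to the smaller library (0.960 and 0.981); division by the scale gave whole tags within 0.02. As deposited, fold enrichment is the ratio of pileup plus 1 to input background plus 1, from which the background was recomputed. Significance was deposited by the authors as −log10 of p and of q.

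Replicate 1 kept 136923044 pulled-down and 131452322 input tags, and replicate 2 kept 130482505 and 127964706, per the file headers. Intervals (95%) cover counting error only; none is given for tags at the cap.

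Regions named are the 8 largest runs, the 8 ceiling pairs of highest smaller-of-both fold, the 4 widest and the 4 of lowest input, the largest sets, the highest pileups, and 3 peaks on each side of the threshold, with ties taken in file order (the highest pileup by q). The ceiling rule, these lists and the settings were chosen with earlier results of these data known. Equality without regard to width, the fixed distances, partner values of sets and the geometry of the 8 loci were followed up after their values were seen. No test was made: each replicate gives 1 list, and peaks are not replicates. Overlap and run code was tested on simulated data. Python 3.11.15, NumPy 2.4.6, pandas 2.3.3, SciPy 1.17.1 and matplotlib 3.10.9 were used. No gene was assigned and no sequence shown, since no genome of the lists' build was used here.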

Additional observations from a re-analysis of the deposited data

How the results depend on the processing

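The limit of at least 450 tags gave the same peaks as 0.9 times the largest pileup, and on the 12 chromosomes alone every value stayed within its error or within 1.5 times. At 0.95 and 0.85 times the largest pileup there were 1578 and 7334 ceiling peaks in replicate 1 and 1663 and 6673 in replicate 2; with a partner 1466 and 6641, and 1307 and 5494; with a partner at the ceiling 1195 and 5207, and 1176 and 5148. In runs were then 66.7% and 85.3%, and 73.6% and 86.0%; median widths were 79 and 91 bp in replicate 1 and 88 bp in replicate 2 at 0.85; median folds were 1.3 and 1.45, and 1.37 and 1.49; identical peaks were 550 and 2346, and 579 and 2241. At 0.95, chromosome 5 and not 4 held most, 14.0% and 14.7%, the commonest spacing began at 1385 and 1395 bp, and 1 of the 8 named pairs was left in each list. With −log10 q of at least 10 in both lists there were 1890 and 2007 ceiling peaks, 1640 and 1275 with a partner, 1103 and 1091 with one at the ceiling, 66.2% and 71.2% in runs, widths of 97 and 96 bp, folds of 1.62 and 1.64, spacings from 390 and 385 bp, and 673 and 677 identical peaks. The shared portion was then 86.8% and 63.5%, since the partner must also reach that q. With identical peaks counted once, 71.4% and 73.9% were in runs, widths were 89 and 87 bp, and the commonest spacing began at 390 bp in both lists, and numbers of identical peaks do not apply. Runs joined at 1, 5 and 50 kb held 41.5%, 71.1% and 88.6% of members in replicate 1 and 43.9%, 73.6% and 88.7% in replicate 2. With any width, a setting chosen after seeing the data, 3068 and 2683 members were identical to another. All 4 other overlap rules kept the number of shared members within 1.5 times; under the strictest, 50% of the longer peak, 81.0% and 71.9% were shared. Stricter and looser limits admit fewer or more peaks by construction; other causes of these shifts were not tested.

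Leaving out a replicate leaves nothing to compare with, and each list is reported by itself. No paired analysis was possible because no result comes from a test. The cap of 5 tags per position limits the tags of these peaks in these libraries, and at the median input background no fold above 1.48 in replicate 1 or 1.51 in replicate 2 can occur.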

Other observations

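The lower peaks inside the densest runs were looked at as well. The runs with at least 10 ceiling peaks, 37 in replicate 1 and 50 in replicate 2, covered 1174 and 1489 kb and held 1042 and 1357 listed peaks below the ceiling. These had a median of 363 and 355 tags over a median input background of 212 and 201, against 338 and 337 for the ceiling peaks of the same runs. Their median folds were 1.59 and 1.66, against 1.34 and 1.38. A fold of at least 2 was listed for 117 (11.2%) and 251 (18.5%) of them, and for 6 and 11 of the 541 and 759 ceiling peaks. Over all listed peaks below the ceiling the values were higher, with median folds of 1.82 and 1.86 and a fold of at least 2 in 34.4% and 38.3%. The highest fold in these runs outside the ceiling was 2.93 and 2.97. The cap of 500 tags limits the fold more where the input is deeper, so these values do not rank the peaks by binding.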
